A study of Mus musculus with 16 samples.

Results

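The 8 genes studied here belong to the adipokine system and were followed through 16 short-read RNA-Seq libraries of the mouse. They were leptin (Lep), adiponectin (Adipoq), resistin (Retn), complement factor D or adipsin (Cfd), retinol-binding protein 4 (Rbp4), apelin (Apln) and the 2 adiponectin receptors (Adipor1 and Adipor2). The members were chosen by name, with earlier results of these data known, by matching gene identifiers to symbols. All 8 were found among the 55385 genes of the count table. Male C57BL/6 mice, aged 12 weeks on arrival, had free access to food or went without it for 24 h, with 3 mice per group. Adipose tissue (white and brown), lung, kidney, spleen, heart, liver and muscle were each pooled within a group and gave 1 library per tissue and treatment. No library therefore has a replicate, and a comparison inside a tissue is one of 2 libraries. The mice carried no transgene or deletion according to the labels, and the fat depot behind the white adipose libraries is not named in them.

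Adipokines are hormones that fat cells release into the blood. Leptin reports the size of the fat stores and recent feeding to the brain, adiponectin raises the insulin sensitivity of liver and muscle, and resistin opposes insulin in the mouse. Adipsin is the protease that starts the amplification loop of the alternative complement pathway, retinol-binding protein 4 carries vitamin A in plasma and is made mainly by the liver, and apelin is a peptide that acts on vessels and heart through its receptor Aplnr. Adipor1 and Adipor2 are the membrane receptors of adiponectin.

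Library totals ranged from 14245178 to 36069968 counts, so that the floor used here, 3 counts, corresponded to between 0.0832 and 0.211 CPM. All levels below are CPM, counts scaled to a common library total, and paired values give the fed library first and the fasting library second. Intervals cover counting error only. The 12 adipocyte markers summed to between 19565 and 30415 CPM in the 4 adipose libraries, and Ucp1, the uncoupling protein of brown fat, was at 3132 CPM (fed) and 2498 CPM (fasting) in brown adipose against 1.93 and 1.60 CPM in white adipose. The brown adipose libraries also carried skeletal muscle genes, whose 7 markers summed to 2512 CPM fed and 1122 CPM fasting, with Myh4 at 1272 and 663 CPM and Acta1 at 415 and 153 CPM. In the same pair 3 of 6 fibroblast markers (1295 and 818 CPM in sum) were called lower in fasting, the collagens Col1a1, Col1a2 and Col3a1. Col3a1 was called lower in every tissue. Dcn was at 235 and 300 CPM, Pdgfra at 48.6 and 45.1 CPM and Dpt at 47.4 and 38.5 CPM, none of them called. Also called lower were 2 of 6 cardiomyocyte markers (15.1 and 2.11 CPM), a sum led by Myl2 (12.5 and 0.913 CPM). The white adipose libraries carried genes of the mesothelium that covers abdominal fat (217 and 259 CPM for 6 markers, led by Upk3b and Msln) and traces of epididymis genes (11.2 and 1.02 CPM for 7 markers, led by Lcn5 and Adam7). Of the 12 adipocyte markers, 1 was called higher in fasting white adipose and 2 lower, Plin1 (2021 and 746 CPM) and Acvr1c (643 and 416 CPM). In brown adipose 2 were called higher and 1 lower, Adrb3 (249.8 and 82.8 CPM). What part these admixtures and marker changes have in the results was not tested. In bulk tissue, fewer cells of a type and less RNA per cell cannot be told apart.

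The promoters of 3 members are shown because Lep and Apln were the members that passed the test across tissues, and Adipoq shares the tissue pattern of Lep without its change. Each runs from 250 bases before the RefSeq start of the gene through its first 50 bases (GRCm38.p6), 5' to 3' on the strand of the gene. Capitals mark matches on either strand to the C/EBP palindrome TTGCGCAA, to CCAAT or to TATAA. The promoter of Lep, chr6:29059971-29060270 on the plus strand, that of Adipoq, chr16:23146286-23146585 on the plus strand, and that of Apln, chrX:48034804-48035103 on the minus strand, read as follows.
Lep: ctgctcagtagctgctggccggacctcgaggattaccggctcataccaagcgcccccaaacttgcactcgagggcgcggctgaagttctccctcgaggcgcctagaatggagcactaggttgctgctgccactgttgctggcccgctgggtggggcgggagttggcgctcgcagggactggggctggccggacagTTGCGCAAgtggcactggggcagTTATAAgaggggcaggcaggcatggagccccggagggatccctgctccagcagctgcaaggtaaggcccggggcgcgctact
Adipoq: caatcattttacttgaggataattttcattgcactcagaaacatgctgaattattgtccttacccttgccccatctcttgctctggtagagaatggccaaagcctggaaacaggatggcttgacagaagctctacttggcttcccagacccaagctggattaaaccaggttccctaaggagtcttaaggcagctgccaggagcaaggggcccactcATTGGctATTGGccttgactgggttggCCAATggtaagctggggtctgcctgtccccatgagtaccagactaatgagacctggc
Apln: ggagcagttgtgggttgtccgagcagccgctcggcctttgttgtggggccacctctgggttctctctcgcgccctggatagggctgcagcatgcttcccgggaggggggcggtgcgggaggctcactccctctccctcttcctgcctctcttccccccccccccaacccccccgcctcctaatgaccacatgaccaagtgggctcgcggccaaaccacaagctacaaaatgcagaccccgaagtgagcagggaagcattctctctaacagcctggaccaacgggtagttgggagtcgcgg
The Lep promoter held the palindrome from 55 to 48 bases before the start and TATAA matches on both strands, overlapping each other, from 32 to 27 bases before it. The Adipoq promoter held 3 CCAAT matches, all within 34 bases before the start. The Apln promoter held none of these letters. Of 32851 RefSeq promoters of the same length, 0.183% held the palindrome, 37.4% CCAAT, 24.9% TATAA and 7.15% CACGTG, an E-box that none of the 3 held. These matches are a description of the letters and carry no information on binding.

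Leptin had the largest change of the 4 adipocyte hormones in both fat tissues. The Lep gene (ENSMUSG00000059201.12) lies on chr6:29060220-29073877, plus strand, and no other gene of the table overlaps it. White adipose held 1142 CPM fed and 263 CPM fasting, and brown adipose held 62.2 CPM fed and 4.14 CPM fasting. The fed level was thus 4.35 times the fasting level in white adipose (95% interval 4.23 to 4.46) and 15.0 times in brown adipose (11.5 to 19.9). In the other 6 tissues Lep lay between 0 and 3.95 CPM. In the fit with separate treatment terms for adipose and other tissues (edgeR, TMM factors, 17296 genes, Benjamini-Hochberg adjustment), Lep fell by 2.92 on the log2 scale in the adipose tissues (standard error 0.39, adjusted p = 0.00655), and it was the only 1 of the 8 members called there. The background of that term was 2.03% of genes lower and 2.49% higher. White and brown fat of the same animals stand in for 2 observations, so that this test measures the spread between tissues. The count of Lep per count of Adipoq in the same library, which needs no scaling and was computed after seeing the data, went from 0.456 to 0.117 in white adipose and from 0.0558 to 0.00415 in brown adipose.

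The fall of Lep could not be called particular to fat. Its change was -1.21 in the 6 other tissues (standard error 0.40, adjusted p = 0.186), and the difference between the terms was -1.71 (standard error 0.56, adjusted p = 0.266). Lep counts were low in these 6 tissues, at most 95, in fed muscle. Heart had 0 in both libraries and spleen 4 fed and 1 fasting. Whether these counts come from attached fat was not tested, so neither term can decide whether Lep fell outside fat. The term of the other tissues was called in 1 of 12 edgeR and DESeq2 alternatives (lowest adjusted p = 0.0329). Without white adipose the adipose term of Lep was -3.89 and the difference -2.69, and without brown adipose they were -2.22 and -1.02. None of the 8 members passed that test of the difference in edgeR, with 1 at an unadjusted p under 0.05 and 1, Lep, called at 0.0234 when the filter on low counts was dropped. The adjusted p of Lep ran from 0.0234 to 0.410 over 12 alternatives. The background was 0.538% of genes with a higher and 0.225% with a lower term. Across all 8 tissues 2 members were called, Lep and Apln, against a background of 2.08% of genes lower and 2.31% higher. Without muscle, brown adipose or lung neither remained called, and without white adipose, heart or kidney Apln alone remained. The edgeR adjusted p of Lep was 0.0278 with a log2 change of -2.11, and 0.0588 without muscle, 0.0504 without brown adipose, 0.0524 without lung and 0.128 without both adipose tissues. Over its 14 alternatives it ran from 0.000862 to 1.0, the highest without the tissue block.

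Adiponectin was not called in either fat tissue. The gene (ENSMUSG00000022878.5, chr16:23146536-23158028, plus strand) was at 2506 CPM fed and 2247 CPM fasting in white adipose and at 1115 and 998 CPM in brown adipose. Both fat tissues gave a log2 fold change of -0.16, below the threshold of 0.5 in size, and the adipose term was -0.20 (standard error 0.35, adjusted p = 0.786). Brown adipose thus held 44.5% of the white adipose level fed and 44.4% fasting.

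Adipsin was the most abundant of the 4 hormones per length in both fed fat tissues. Per kilobase of gene length, fed white adipose held 8733 CPM of Cfd, 1815 CPM of Adipoq, 557 CPM of Retn and 341 CPM of Lep. Fed brown adipose held 1255 CPM of Cfd and 807 CPM of Adipoq on that scale. Cfd (ENSMUSG00000061780.6, chr10:79890853-79892655, plus strand) was at 8052 CPM fed and 6800 CPM fasting in white adipose and at 1158 and 959 CPM in brown adipose. The log2 fold changes were -0.24 and -0.27, neither of which was called, and the adipose term was -0.30 (standard error 0.49, adjusted p = 0.768).

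Resistin was lower in the fasting library of both fat tissues, but did not pass the fit. Retn (ENSMUSG00000012705.16, chr8:3655770-3660110, plus strand) was at 879 CPM fed and 501 CPM fasting in white adipose and at 41.4 and 23.9 CPM in brown adipose. The fed level was 1.75 times the fasting level (1.71 to 1.79) in white and 1.73 times (1.52 to 1.98) in brown adipose. The adipose term was -0.85 (standard error 0.30, adjusted p = 0.139 in edgeR), and over 12 alternatives it ran from 0.0427, when no filter on low counts was used, to 0.570. Together the 4 hormones took 1.26% of all counts in the fed white adipose library and 0.981% in the fasting one (Wilson 95% intervals 1.253 to 1.262% and 0.978 to 0.985%).

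**Figure D1:**
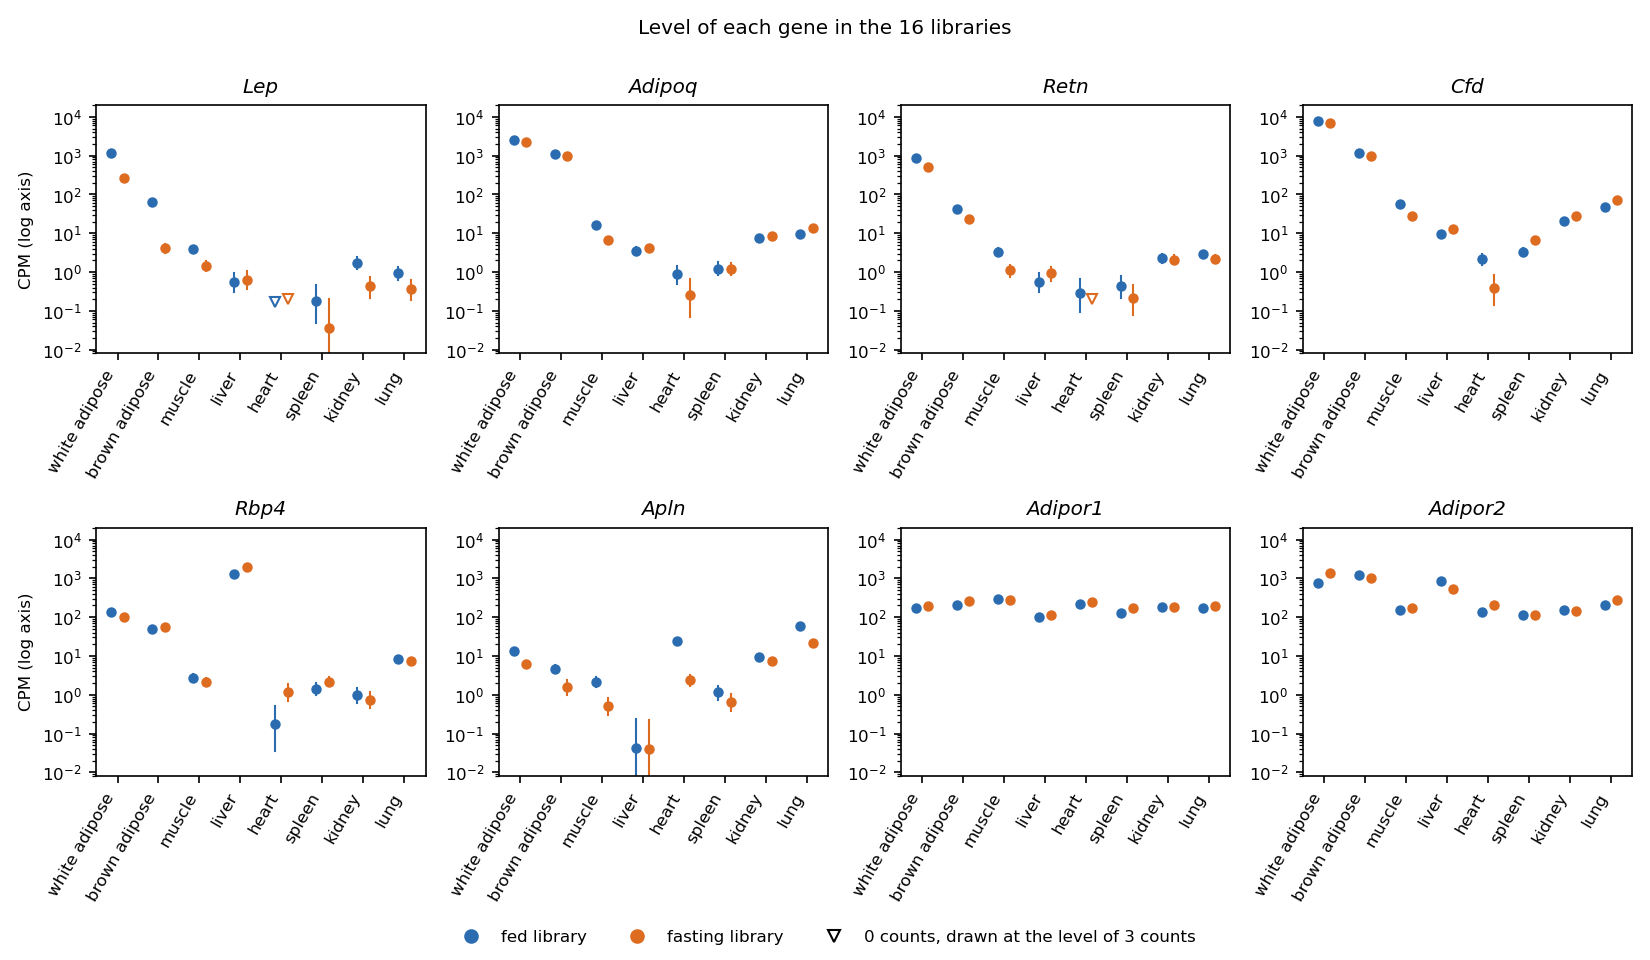
Level of each member in the 16 libraries, in CPM on a log axis, with fed libraries in blue and fasting libraries in orange. Points are single libraries, bars are exact Poisson 95% intervals, and open triangles mark 0 counts drawn at the level of 3 counts. Lep, Adipoq, Retn and Cfd are highest in white adipose and next highest in brown adipose, Rbp4 in liver and Apln in lung, while Adipor1 lies between 99.6 and 289 CPM in all 16.

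Retinol-binding protein 4 had its highest level in the liver. Rbp4 (ENSMUSG00000024990.13, chr19:38116629-38125281, minus strand) was at 1288 CPM fed and 2008 CPM fasting in liver, where the fasting library was 1.56 times the fed one (1.54 to 1.58). White adipose followed with 139 and 99.0 CPM and brown adipose with 49.5 and 54.8 CPM. The change in white adipose, -0.49 on the log2 scale, was just inside the threshold and not called, and became a call at -0.60 with TMM factors. The adipose term was -0.22 (standard error 0.36, adjusted p = 0.768). Transthyretin (Ttr), the plasma partner of the protein, went the other way in liver, from 4518 to 2450 CPM, and the receptor gene Stra6l from 287 to 160 CPM. Both were picked after their values were seen. Of the 8 genes listed for retinol transport, 4 were called lower and 1 higher in liver, where 9.52% of all genes with a count were lower and 4.46% higher. In the same liver libraries 7 of 8 pancreas acinar markers were called higher (101 and 222 CPM in sum). In heart, Rbp4 was called higher in fasting, at 0.174 CPM fed (3 counts) and 1.18 CPM fasting (18 counts). The 6 hepatocyte markers summed to 23.9 and 87.8 CPM in the same libraries.

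Apelin was called lower in the fasting libraries of 5 tissues, both fat tissues among them. Apln (ENSMUSG00000037010.7, chrX:48025146-48034853, minus strand) was highest in lung, at 58.6 CPM fed and 21.6 CPM fasting, and reached 24.3 and 2.36 CPM in heart. White adipose held 13.7 and 6.23 CPM, brown adipose 4.70 and 1.54 CPM, and muscle 2.16 and 0.517 CPM. The fed level exceeded the fasting level by 10.3 times in heart (7.33 to 14.9), 4.18 times in muscle (2.35 to 7.84) and 2.71 times in lung (2.49 to 2.95). Kidney held 9.27 and 7.33 CPM and spleen 1.15 and 0.647 CPM, and neither was called. Liver had 1 count in each library, which allows no fold. Apln fell by 1.46 across the 8 tissues (standard error 0.30, adjusted p = 0.0287), a call that was lost without muscle (0.0729), brown adipose (0.0763) or lung (0.0659), within 0.000572 to 1.0 over its 14 edgeR and DESeq2 alternatives. The adipose term alone was -1.37 (standard error 0.55, adjusted p = 0.181). The edgeR term of the 6 other tissues was -1.49 (standard error 0.36, adjusted p = 0.0950). It was called in 2 of 12 alternatives, and the adipose term in 0 of 12. Values of 6 endothelial markers, set beside Apln because vessels make it, summed to 2917 and 2610 CPM in lung, 915 and 763 CPM in heart, 1133 and 998 CPM in white adipose and 237 and 200.4 CPM in muscle. The sums were 833 and 838 CPM in brown adipose, where Apln was called lower as well, and 376 and 375 CPM in kidney and 456 and 515 CPM in spleen, where it was not called. In each of the 5 tissues with an Apln call 1 of the 6 was called lower, and none in kidney, spleen or liver. It was Kdr, a receptor of vascular endothelial growth factor, in brown adipose (289.7 and 202 CPM), heart (316 and 169.5 CPM) and muscle (63.3 and 28.1 CPM), Tie1 in white adipose (122 and 81.4 CPM) and Emcn in lung (67.8 and 38.2 CPM), while Pecam1 was called higher in brown adipose (138 and 204 CPM). Their part in the result was not tested.

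The apelin receptor was lower in fasting as well, and a joint change with its ligand was not tested. Aplnr was at 72.1 CPM fed and 11.6 CPM fasting in white adipose and at 34.3 and 18.0 CPM in brown adipose. By the within-tissue call it was lower in 7 of 8 tissues, among them kidney and spleen, where Apln was not called. Aplnr fell by 1.50 across tissues (standard error 0.22, adjusted p = 0.0108) and by 1.84 in the adipose term (standard error 0.40, adjusted p = 0.0365). The leptin receptor Lepr, picked after its values were seen, was at 9.45 and 10.4 CPM in white adipose and at 5.56 CPM in fed and 78.8 CPM in fasting liver, a 14.2-fold difference between those libraries. In the fit of all tissues it gave 0.87 (standard error 0.37, adjusted p = 0.188).

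**Figure D2:**
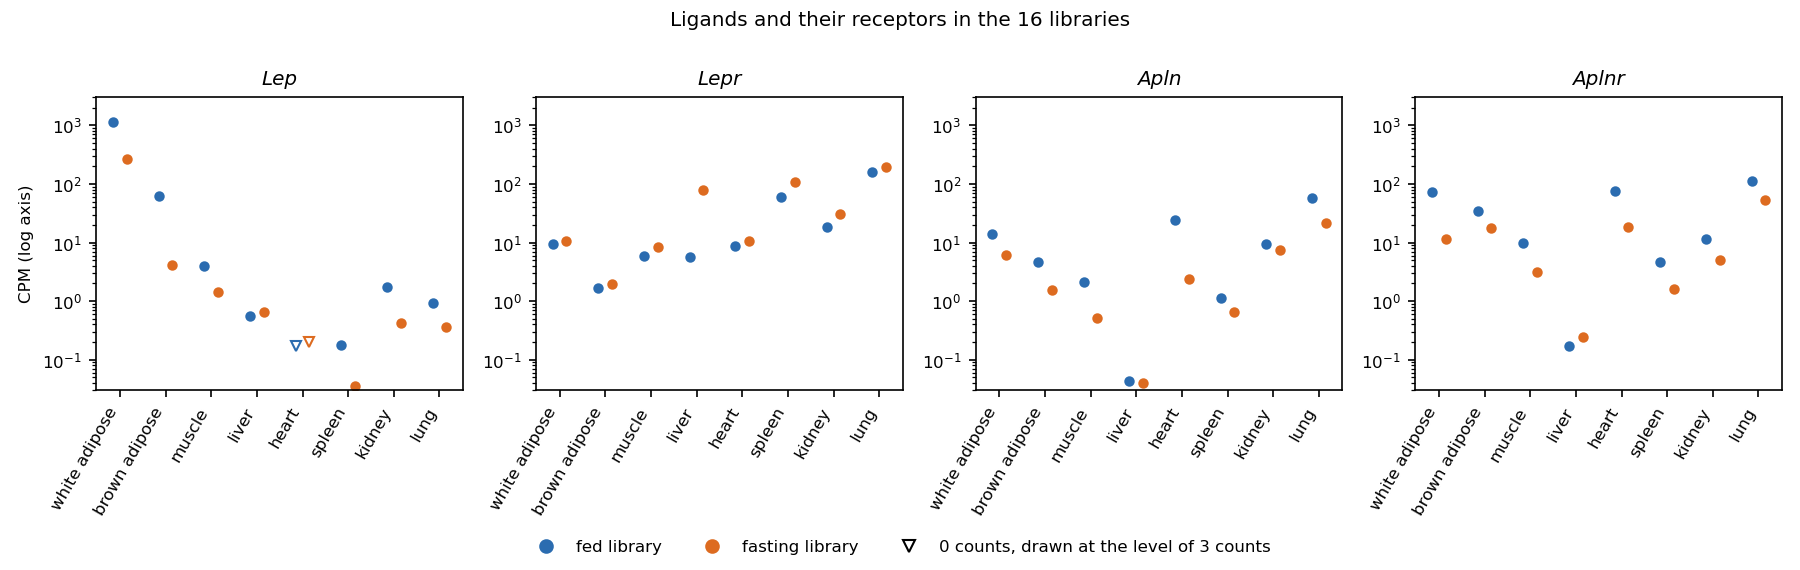
Leptin, apelin and their receptors in the 16 libraries, in CPM on a log axis, with fed libraries in blue and fasting libraries in orange and single libraries as points. Lepr stands out in fasting liver at 78.8 CPM, and Aplnr is lower in the fasting library of every tissue except liver, where it lies at or below 0.24 CPM.

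Of the adiponectin receptors, Adipor1 was called in none of the 8 tissues and Adipor2 in 3. That difference was not tested, and above a log2 fold change of 1, or with an assumed coefficient of variation of 0.2, neither was called in any tissue. Adipor1 (ENSMUSG00000026457.14, chr1:134415378-134433351, plus strand) ranged from 99.6 CPM in fed liver to 289 CPM in fed muscle and had an adjusted p of 0.104 across tissues (log2 change 0.21, standard error 0.07). DESeq2 called it at an adjusted p of 0.0157, and the alternatives ran from there to 1.0. Adipor2 (ENSMUSG00000030168.13, chr6:119353150-119417704, minus strand) was at 755 CPM fed and 1398 CPM fasting in white adipose, at 1230 and 1037 CPM in brown adipose, at 848 and 529 CPM in liver and at 132 and 201 CPM in heart. The fasting library was 1.85 times the fed one in white adipose (1.82 to 1.89) and 1.52 times in heart (1.44 to 1.60), whereas the fed one was 1.60 times the fasting one in liver (1.57 to 1.64). The adipose term was 0.28 (standard error 0.30, adjusted p = 0.636), and it turned to -0.23 without white adipose.

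Within tissues, 24 of the 64 pairs of member and tissue were called, 17 lower and 7 higher in fasting. In white adipose 3 members were lower and 1 higher, where 5.84% of all genes with a count were lower and 13.2% higher. In brown adipose 3 were lower and 0 higher, against 7.58% and 5.39%. The counts elsewhere were 5 lower in muscle (9.39% lower and 4.42% higher in the background), 1 lower and 1 higher in liver (9.52% and 4.46%), 2 lower and 2 higher in heart (5.80% and 4.33%), 1 higher in spleen (1.62% and 2.31%), 1 lower in kidney (3.93% and 2.77%) and 2 lower and 2 higher in lung (6.49% and 2.68%). The 8 members were selected by name with earlier results of these data known, and these counts compare pairs of libraries.

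**Figure D3:**
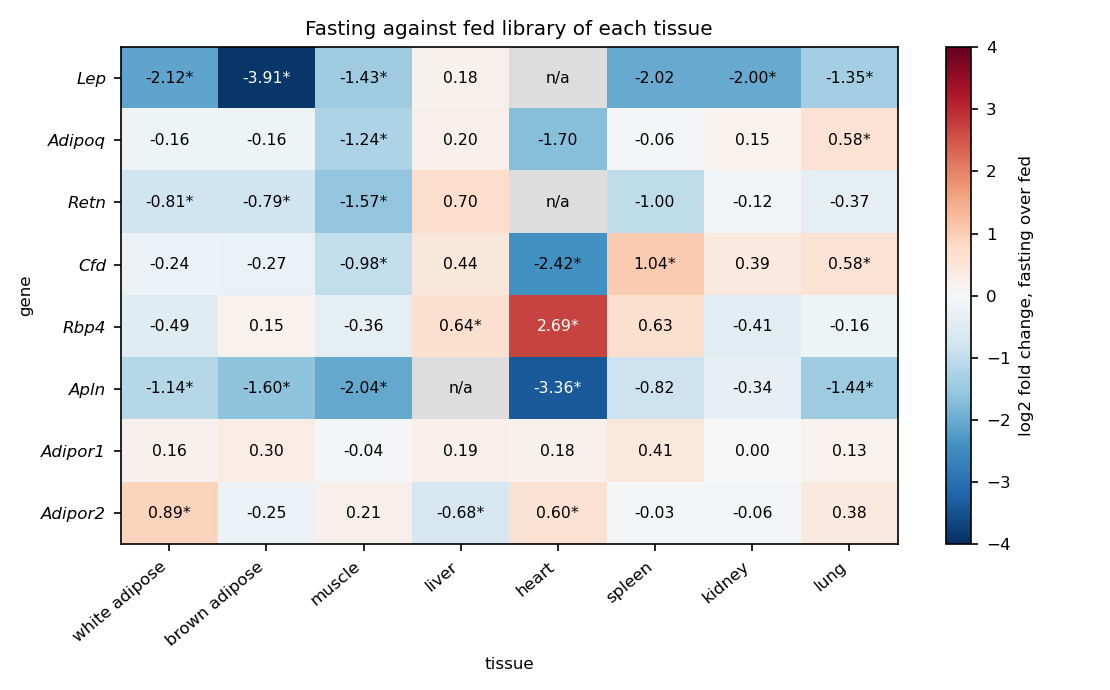
Log2 fold change of each member, fasting over fed library, by tissue, with blue for lower and red for higher in fasting. Stars mark calls (above 0.5 in size and Fisher's exact p under 0.01), and grey cells have both libraries at or under 3 counts or 1 at 0. The largest values are -3.91 for Lep in brown adipose and -3.36 for Apln in heart.

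Fat hormones were also counted outside fat, at levels of the order of traces. Relative to white adipose of the same treatment, Lep, Adipoq, Retn and Cfd lay between 0.345 and 0.700% in fed muscle, 0.152 and 0.297% in fed kidney, 0.0816 and 0.605% in fed lung and 0.0494 and 0.142% in fed liver. Spleen held 0.0155 to 0.0502% and heart at most 0.0348% in the fed libraries, and Lep had 0 counts in both heart libraries. All 12 adipocyte markers were above 3 counts in muscle, liver, kidney and lung. Their sums were 1202 and 2068 CPM in muscle, 226 and 484 CPM in liver, 1664 and 1576 CPM in kidney, 1860 and 2593 CPM in lung and 363 and 499.6 CPM in spleen. These sums do not measure fat alone, since genes that other cells also express made up much of them. In the fed libraries Cd36 was at 1463 CPM in lung, Cd36 at 791 and Lpl at 685 CPM in kidney, and Lpl at 348, Plin4 at 304 and Cd36 at 285 CPM in muscle. In heart 11 were above 3 counts fed and 10 fasting, but their sums of 7464 and 11392 CPM were led by Lpl and Cd36, which heart muscle expresses itself, and the beta-3 adrenergic receptor Adrb3 had 0 counts in both. Whether the hormone counts outside fat come from attached fat was not tested.

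The lower hormone levels of fasting muscle moved together. Lep went from 3.95 to 1.45 CPM, Adipoq from 16.1 to 6.79 CPM, Retn from 3.28 to 1.10 CPM and Cfd from 56.4 to 28.5 CPM, and all 4 were called lower. Of the 12 adipocyte markers in the same libraries 5 were called. Plin1 went from 11.5 to 3.33 CPM and Acvr1c from 5.23 to 2.17 CPM, both lower, while Plin4 (304 to 869.5 CPM), Pnpla2 (87.9 to 239 CPM) and Cd36 (285 to 439 CPM) were higher. Called lower there were also 3 of 6 fibroblast markers (1868 to 1342 CPM in sum), the collagens Col1a1, Col1a2 and Col3a1. Dcn was at 466 and 531 CPM, Pdgfra at 63.2 and 64.4 CPM and Dpt at 46.5 and 37.2 CPM, none of them called. Of 6 cardiomyocyte markers 3 were called lower (94.4 to 48.0 CPM), a sum led by Myl2 (62.1 to 27.6 CPM). The ratio of Lep to Adipoq in muscle was 0.245 fed and 0.214 fasting, a log2 change of -0.20 with an interval from -0.76 to 0.37 that includes 0. In kidney it went from 0.234 to 0.0516 and in lung from 0.100 to 0.0259, with log2 changes of -2.18 (-3.19 to -1.17) and -1.95 (-2.92 to -0.98), beside -1.96 in white adipose. In liver it was 0.159 and 0.157.

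In lung and spleen Cfd was higher in fasting, from 48.7 to 72.9 CPM and from 3.36 to 6.90 CPM, and Adipoq was higher in lung, from 9.32 to 13.9 CPM. Lep was called lower in the same lung libraries, from 0.932 to 0.360 CPM, and Retn was at 2.86 and 2.22 CPM there and not called. Above a log2 fold change of 1, Adipoq and Cfd in lung were not called. At an assumed coefficient of variation of 0.2, neither they nor Lep in lung nor Cfd in spleen were called. Lep in lung was also not called when only genes with at least 1 CPM were tested. In spleen Adipoq was at 1.24 and 1.19 CPM, Retn at 0.442 and 0.216 CPM and Lep at 0.177 and 0.0359 CPM, none of them called. The log2 change of Cfd per Adipoq was 1.10 in spleen (0.28 to 1.92) and 0.0014 in lung (-0.23 to 0.23). Of the 12 adipocyte markers 8 were called higher in lung (median log2 fold change 0.84) and 4 in spleen (0.54), and 0 were called lower in either. Plin1 was at 9.51 and 7.37 CPM in lung and not called. In spleen Aqp7, Acvr1c and Lipe had log2 fold changes of -0.59, -0.24 and -0.02, none of them called. Other marker sums moved in the same libraries. In lung all 8 lymphocyte markers were called lower (216 to 101 CPM in sum), as were 5 of 6 cardiomyocyte markers (973 to 488 CPM). In spleen all 8 pancreas acinar markers were called lower (482 to 11.7 CPM) and all 5 erythroid markers higher (3814 to 9233 CPM).

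In heart Cfd was at 2.15 CPM fed and 0.393 CPM fasting (37 and 6 counts), Adipoq at 15 and 4 counts and Retn at 5 and 0 counts. The adipocyte markers called higher in heart were 7, from Trarg1 (2.73 to 8.85 CPM) to Cd36 (2433 to 3921 CPM), whereas Plin1 was at 0.581 and 0.131 CPM and Cidec at 0.407 and 0.262 CPM, neither of them called. In kidney, where Lep was called lower, 7 adipocyte markers were called higher and 2, Plin1 and Lpl, lower. Of the 7 brown adipocyte markers 3 were called higher in kidney, namely Ucp1 (0.579 to 2.13 CPM), Cidea (0.936 to 4.89 CPM) and Cox8b (0.267 to 1.32 CPM), and of the 6 hepatocyte markers 4 were lower and 1 higher. The part of these changes in the hormone values was not tested.

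**Figure D4:**
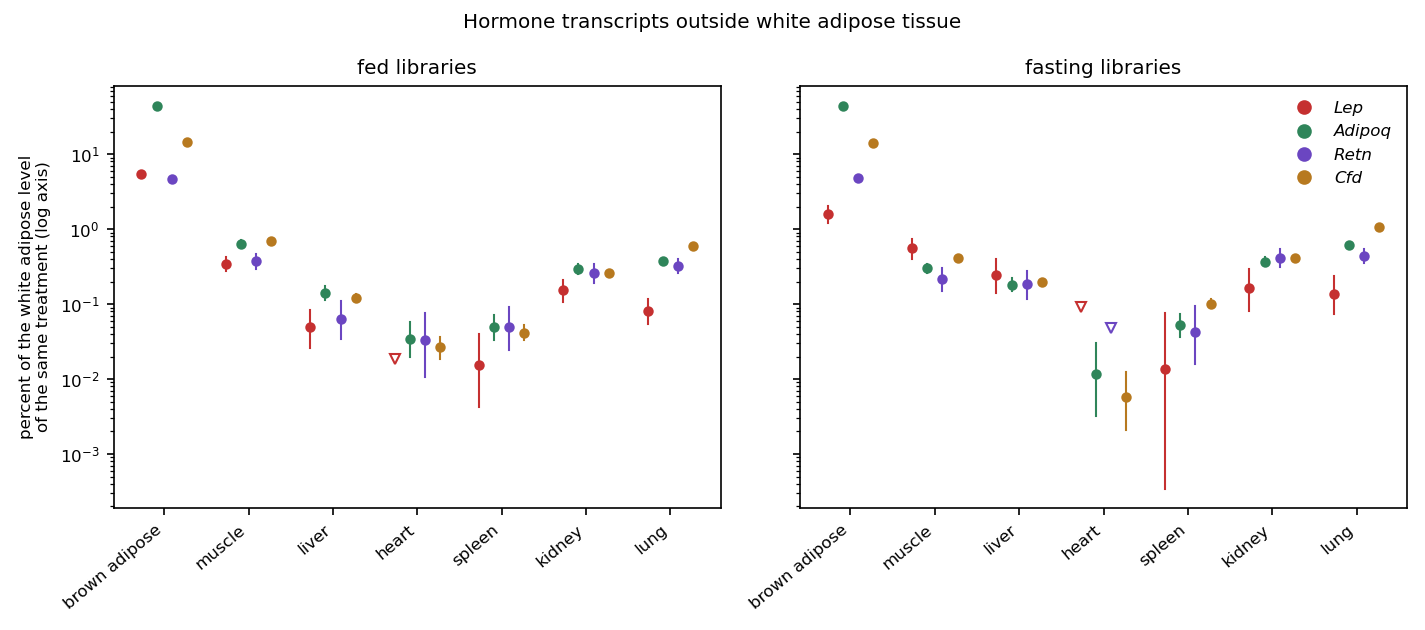
Lep, Adipoq, Retn and Cfd in each other tissue as a percent of their white adipose level under the same treatment (log axis), in fed libraries (left) and fasting libraries (right). Points are single libraries, bars exact Poisson 95% intervals of the count in that tissue, and open triangles the upper limit where the count was 0. Brown adipose holds 44.5% of the Adipoq level but 5.45% of the Lep level in the fed libraries, and outside fat only Cfd in fasting lung, at 1.07%, passes 1%.

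Related genes were read from 8 lists with 88 genes in all. In white adipose 23 were higher and 12 lower in fasting, and in brown adipose 10 were higher and 12 lower. Over all genes with a count, those of few counts included, 13.2% were higher and 5.84% lower in white adipose and 5.39% higher and 7.58% lower in brown adipose. Their median log2 fold change among genes with at least 1 CPM was 0.05 in white and -0.06 in brown adipose, beside 0.07 and -0.03 over all genes. In the edgeR adipose term 7 of 79 tested list genes were called, namely Lcn2, Cfi, Stra6l and Appl2 higher and Aplnr, Fbn1 and Cebpa lower, where 2.49% of all tested genes were called higher and 2.03% lower. Within tissues the 4 higher ones were called in white adipose and none of them in brown adipose, where Lcn2 was at 0.662 and 0.702 CPM (6.27 and 108 CPM in white), Cfi at 0.843 and 1.05 CPM (0.730 and 15.7 CPM), Stra6l at 0.421 and 0.632 CPM (0.644 and 4.38 CPM) and Appl2 at 38.2 and 54.1 CPM (68.4 and 123 CPM).

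Among the 26 other secreted adipokines, 9 were higher and 4 lower in white adipose, and 3 and 4 in brown adipose. Gpx3, the plasma glutathione peroxidase, was at 593 and 844 CPM in white and 1724 and 2662 CPM in brown adipose. Angptl4, an inhibitor of lipoprotein lipase, was at 333 and 602 CPM in white and 496 and 621 CPM in brown adipose. Its change in brown adipose was not called. Across tissues Angptl4 rose by 2.25 (standard error 0.40, adjusted p = 0.020). Its adipose term was 0.55 (standard error 0.42, adjusted p = 0.495), and that of the 6 other tissues 2.83 (standard error 0.27, adjusted p = 0.0046). Vegfa, a growth factor of vessels, was at 246 and 525 CPM in white and 489 and 558 CPM in brown adipose. Fbn1, whose protein also yields the hormone asprosin, fell by 0.88 in the adipose term (standard error 0.19, adjusted p = 0.0347).

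Of the 9 C1q/TNF relatives of adiponectin, 2 were higher and 1 lower in white adipose, and 1 and 1 in brown adipose. C1qtnf9 was at 62.7 and 37.3 CPM in white but 42.7 and 66.7 CPM in brown adipose, C1qtnf1 at 64.8 and 64.7 CPM in white adipose and C1qtnf12 at 55.6 and 62.0 CPM there. Of the 12 receptors and partners, 4 were higher and 1 lower in white adipose, and 0 and 2 in brown. The insulin receptor Insr was at 319 and 473 CPM in white adipose and rose across tissues by 0.45 (standard error 0.07, adjusted p = 0.0154). Cmklr1, the chemerin receptor, was at 156 and 247 CPM and Cap1, a reported resistin receptor, at 157 and 151 CPM in white adipose.

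The 8 leptin signalling genes had 1 higher and 1 lower in white adipose and 2 higher and 1 lower in brown. Irs2, an adaptor of the insulin receptor, was at 157 and 232 CPM in white and 120 and 281 CPM in brown adipose and rose across tissues by 0.90 (standard error 0.22, adjusted p = 0.0472). Irs1 was at 225 and 222 CPM and Stat3, the transcription factor downstream of the leptin receptor, at 191 and 249 CPM in white adipose. The 9 genes of adiponectin signalling and assembly had 2 higher and 1 lower in white and none called in brown adipose. Prkaa1 was at 111 and 86.7 CPM and Stk11 at 75.4 and 82.5 CPM in white adipose, and Ppara at 363 and 301 CPM in brown adipose. Of the 7 alternative complement genes, 1 was higher in white and 1 lower in brown adipose, with C3, the substrate of the pathway, at 1334 and 1557 CPM and Cfp at 51.7 and 44.1 CPM in white. Of the 8 retinol transport genes, 4 were higher in white and 1 lower in brown adipose, with Aldh1a1 at 280 and 334 CPM and Dgat1 at 198 and 202 CPM in white. Lrat was called higher in white and lower in brown adipose, at levels under 1 CPM.

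The 11 adipocyte transcription factors had 1 higher and 4 lower in white and 4 higher and 2 lower in brown adipose. Cebpa, a factor of fat cell differentiation that binds the palindrome searched above, was at 756 and 374 CPM in white and 765 and 463 CPM in brown adipose and fell by 0.91 in the adipose term (standard error 0.19, adjusted p = 0.0311). Srebf1, a factor of lipid synthesis, was at 432 and 161 CPM in white and 457 and 122 CPM in brown adipose and fell by 1.29 across tissues (standard error 0.30, adjusted p = 0.0423). Cebpd was at 26.1 and 93.2 CPM in white and 7.35 and 16.2 CPM in brown adipose and rose across tissues by 1.75 (standard error 0.35, adjusted p = 0.0278). Pparg, the master factor of fat cells, was at 280 and 221 CPM in white and 372 and 424 CPM in brown adipose and was not called in either.

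The genes whose levels were most like those of the members over the 16 libraries were found by Pearson's r of log2(CPM + 1) among 21965 genes, as a description over libraries that share tissues and pools. The 8 members were left out of these rankings, and Retn was closer to Lep (r = 0.97) and Adipoq to Cfd (r = 0.98) than any gene listed for them here. Those of Lep were Nnat (r = 0.96), Gm15551 and Gm40761, and Nnat was at 1104 CPM in fed and 441 CPM in fasting white adipose and at 29.1 and 4.91 CPM in brown adipose. Those of Adipoq were Plin1 (r = 0.99), Acvr1c and Ankef1, those of Retn were Tshr (r = 0.98), 2610016A17Rik and Gm15551, and those of Cfd were Lgals12 (r = 0.97), Plin1 and Acvr1c. Rbp4 was closest to Orm1, Apoc1 and Hsd3b7 (r from 0.96 to 0.97), Apln to C1qtnf2, Nipa1 and Wscd1 (0.91 to 0.93), Adipor1 to Metap2, Fundc2 and Ube3b (0.94), and Adipor2 to Klb, Agmo and Exd1 (0.95 to 0.97). These lists depend on the settings, since the 2 entries checked under alternatives moved.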

How the data were processed

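Short-read RNA-Seq counts of 16 libraries were used, 1 pooled library of 3 mice per tissue and treatment. The authors trimmed strand-specific reads with fastp 0.23.2, used HISAT2 2.2.1.0 for alignment to GRCm38 (versions from the submitters' processing notes) and deposited unnormalized counts per gene from featureCounts. The deposited gene length (an other value) served for levels per kilobase only. Gene symbols were matched by identifier for 55144 of 55385 genes, and 0 value columns went unused.

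Within a tissue, log2((CPM fasting + 0.01)/(CPM fed + 0.01)) and Fisher's exact test (two-sided) were computed for every gene with a count, and a gene was called above 0.5 in size at an unadjusted p under 0.01. This compares 2 libraries. Across tissues, edgeR 4.0.16 (R 4.3.3) fitted tissue and treatment by quasi-likelihood with TMM factors, filterByExpr and Benjamini-Hochberg adjustment, called under 0.05. The standard error was the log2 fold change divided by the root of F. Tissues share 2 pools of mice, so p-values measure the spread between tissues. Intervals are 95%. DESeq2 1.42.0 was an alternative. Both steps were tested on simulated data.

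The members and lists were chosen with earlier results of these data known. Named are all members, per list the 3 genes highest in fat and up to 2 largest changes called in both fat tissues, the 2 highest genes of marker lists, and the 3 genes most like each member. A few genes that this rule selects are not reported here.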

Additional observations from a re-analysis of the deposited data

How the results depend on the processing

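No paired analysis was possible because each tissue and treatment gave 1 pooled library, other than the pairing by tissue that the fits hold as the tissue block. Of the within-tissue log2 fold changes, 250 kept direction and side of the threshold, 5 passed the threshold and 5 uncalled ones changed sign. The former were Cfd in liver and Rbp4 in white adipose, each with TMM factors and with DESeq2 size factors, and Rbp4 in white adipose relative to the adipocyte marker median. The latter were Adipor1 in muscle (0.036 with TMM factors, 0.036 with DESeq2 size factors) and kidney (0.073 and 0.056) and Adipor2 in kidney (0.012 with TMM factors). TMM factors moved the median of all genes by -0.11 in white adipose and 0.12 in liver. Of 24 within-tissue calls, 15 were left at a log2 fold change above 1, 13 with edgeR's exact test at an assumed coefficient of variation of 0.2 and 2 at 0.4. Above 1, liver had 0, white adipose 2 and lung 2. At 0.2, liver had 0, white adipose 2, spleen 0 and lung 1. At 0.4, muscle, liver, white adipose, spleen, kidney and lung had 0 each, and brown adipose and heart 1 each. The cause was not tested.

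Members called across tissues numbered 2, from 0 to 2 with a tissue left out, 0 without the tissue block and 0 without both adipose tissues. DESeq2 also called Adipor1 across tissues (adjusted p = 0.0157). Without the filter 2 were called in the adipose term and 1 in the difference, against 1 and 0. With a tissue left out the adipose term kept 1 and the difference 0. Leaving out tissues moved the across-tissue value of Adipoq from -0.27 to 0.032 and of Cfd from -0.14 to 0.15, the adipose term of Rbp4 from -0.60 to 0.17 and of Adipor2 from -0.23 to 0.79, and the difference for Adipoq from -0.43 to 0.11, Apln from -0.34 to 0.52, Adipor1 from -0.16 to 0.11 and Adipor2 from -0.36 to 0.65. Cfd across tissues was -0.055 with DESeq2, -0.027 with library totals and -0.32 without the block. With library totals the difference was 0.0056 for Adipoq and 0.090 for Adipor1. No called value changed sign. Depth limits Lep in heart and spleen and Apln in liver, at 4 counts or fewer. It also limits Adipoq (15 and 4 counts) and Retn (5 and 0) in heart, and the call of Rbp4 there (3 and 18).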
